A study of Rattus norvegicus with 60 samples.

Results

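The urea cycle and periportal amino acid enzymes are 9 genes of the liver's nitrogen metabolism: Cps1, Otc, Ass1, Asl, Arg1, Nags, Gls2, Hal and Sds. They were chosen by symbol, and each probe set (a group of short array probes against 1 transcript) had to be annotated to exactly 1 of these symbols. The 9 genes had 11 probe sets, 2 each for Asl and Cps1, among 14217 named genes on the array. For each gene, the probe set with the highest mean over all 60 arrays stood for it.

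RNA was from the left lateral liver lobe of male F344/N rats, an inbred strain, that were 5 to 6 weeks old at the start. The rats were gavaged with a chemical in corn oil on 5 consecutive days, and 12 groups of 5 arrays each were made. The first 6 groups received DMPT (N,N-dimethyl-p-toluidine, an aromatic amine methylated at its nitrogen) at 1, 6, 20, 60 mg/kg per day or, at most, 120 mg/kg per day, or its corn oil vehicle. The other 6 received p-toluidine, the amine without those methyl groups, at the same doses by mass or its own vehicle. The labels name no modified allele in any group. The labels do not tie each array to a rat, and the rats were housed 2 per cage, so a p-value measures the spread between arrays, which may be partly technical.

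Liver cells around the portal vein take up ammonia and amino acids first. There, the urea cycle turns ammonia into urea over mitochondrial and cytosolic steps, and enzymes such as glutaminase, histidase and serine dehydratase release ammonia from amino acids. In fed rats these genes follow protein intake, glucagon and glucocorticoids.

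All values are on the log2 scale, so a change of 1 is a doubling of signal. The arrays of the chemicals were normalized apart: array medians were 3.54 to 3.62 for DMPT and 2.73 to 2.81 for p-toluidine. Levels were therefore set only against the vehicle of the same chemical. The number of arrays limits the precision. On 5 DMPT arrays the values were less spread than on the others (interquartile range 3.01 to 3.14). They were replicate 3 at 6 mg/kg, replicates 3 and 5 at 60 mg/kg and replicates 2 and 5 at 120 mg/kg. The 8 hepatocyte markers were bright, with mean levels of 12.27 to 12.38 at 120 mg/kg of DMPT and 12.41 to 12.51 in its vehicle, and of 12.06 to 12.14 at 120 mg/kg of p-toluidine and 12.13 to 12.24 in its vehicle. The 3 kidney markers averaged 1.76 to 2.14 with DMPT at 120 mg/kg and 1.83 to 2.09 in its vehicle, below the array medians.

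Of the 9 genes, 3 passed the test at 1 or more doses of either chemical and 6 passed at none. Of all probe sets, bright and dim, 17.8% passed at 1 or more doses. All members but Sds were bright. The dimmest of these was Hal, at percentile 91.4 of all probe sets over the DMPT arrays and 91.1 over the p-toluidine arrays. Asl, which splits argininosuccinate into arginine and fumarate, fell with both chemicals at 60 and 120 mg/kg. Nags, which makes the N-acetylglutamate that Cps1 needs as its activator, fell with p-toluidine at 20, 60 and 120 mg/kg. Arg1, the last enzyme of the cycle, which cuts arginine into urea and ornithine, rose with p-toluidine at 120 mg/kg. No member changed by 1.5-fold or more at any dose. Here and below, a gene was called when its adjusted p was at most 0.05 in limma, a linear model fitted to all 31042 probe sets, with Benjamini-Hochberg adjustment over all of them. In whole liver, fewer cells of a type and less RNA per cell cannot be told apart.

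The promoter sequences of Nags and Asl, the members that fell, are shown with that of Cps1, which was called at no dose and whose enzyme depends on the product of Nags. They are the bases before the annotated start of each gene in RefSeq (rat build GRCr8, plus strand), 5′ to 3′, with CpG dinucleotides in capitals. Nags lies at chr10:87598266-87598515, Asl at chr12:32295658-32295778 and Cps1 at chr9:76063613-76063862.
Nags: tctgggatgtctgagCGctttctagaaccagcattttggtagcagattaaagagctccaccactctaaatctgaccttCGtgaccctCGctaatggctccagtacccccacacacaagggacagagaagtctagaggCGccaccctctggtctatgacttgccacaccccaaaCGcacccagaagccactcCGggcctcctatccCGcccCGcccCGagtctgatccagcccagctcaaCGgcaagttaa
Asl: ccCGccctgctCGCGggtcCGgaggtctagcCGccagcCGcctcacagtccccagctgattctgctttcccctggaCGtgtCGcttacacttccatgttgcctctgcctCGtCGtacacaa
Cps1: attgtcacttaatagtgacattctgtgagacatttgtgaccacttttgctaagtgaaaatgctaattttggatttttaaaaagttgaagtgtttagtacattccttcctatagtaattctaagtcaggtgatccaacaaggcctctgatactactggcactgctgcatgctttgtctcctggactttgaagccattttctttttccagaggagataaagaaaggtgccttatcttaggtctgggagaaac

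The genes themselves lie at chr9:76063863-76186739 (Cps1), chrX:15126358-15202473 (Otc), chr3:35144765-35194632 (Ass1), chr12:32295779-32313257 (Asl), chr1:22295093-22307720 (Arg1), chr10:87598516-87602650 (Nags), chr7:1201757-1218014 (Gls2), chr7:29894495-29924744 (Hal) and chr12:41743796-41751108 (Sds) in that build. The Nags stretch held 10 CpG dinucleotides in 250 bases, the Asl stretch 10 in 121 bases and the Cps1 stretch 0 in 250 bases. Over the 250-base windows before the start site that the RefSeq table uses, the CpG count was 21 for Asl, 10 for Nags, 5 for Ass1, 2 for Otc and 0 for Cps1, and the median of all 33469 windows was 5. For Gls2, 2 start sites were listed, with 21 and 6. In that table, part or all of the window of Asl, Ass1 and Gls2 lies inside the annotated gene. RefSeq windows were found for 6 of the 9 members, and Arg1, Hal and Sds are named only.

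On these windows, 6 motifs were searched on both strands. TATAAA, the TATA box motif, was in 12.9% of all windows and among the members only in Ass1. There it lay on the minus strand (TTTATA), from -60 to -55, in a window wholly inside the annotated gene. TGACG, the core of the cAMP response element, was in 18.2% of all windows and TGACNNNGC, an antioxidant response element core, in 10.1%, and among the members both were only in Gls2. TTGCNNAA, a C/EBP motif (9.22% of all windows), TGACGTCA, the full cAMP response element, which contains that core (1.59%), and TGTTCT, a single arm of the glucocorticoid response element (17.5%), were in no member's window. No such match marks a bound site, and these are descriptions of the letters in these windows.

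Asl was the member called with both chemicals. With DMPT, the group means at vehicle, 1, 6, 20, 60 and 120 mg/kg were 8.23 ± 0.08, 8.18 ± 0.09, 8.05 ± 0.13, 8.00 ± 0.06, 7.92 ± 0.15 and 7.87 ± 0.17 (SD, n = 5 each). Neighbouring dose groups overlapped in their single arrays, while the ends of the series stood apart. At 120 mg/kg of DMPT the 5 arrays read 8.10, 7.63, 7.80, 7.94 and 7.87, against 8.16, 8.30, 8.33, 8.17 and 8.21 in vehicle. Every dosed array lay below every vehicle array. How many of all probe sets were separated in this way was not counted, here or for the members below.

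The log2 change of Asl at 120 mg/kg of DMPT was -0.37 ± 0.08 (SE), or 1.29-fold lower, with an adjusted p of 0.00253 in limma. At 60 mg/kg it was -0.31 ± 0.08 (adjusted p 0.0159), and at 20 mg/kg -0.23 ± 0.08 (adjusted p 0.133). The call at 60 mg/kg was lost without replicate 3 of that dose (-0.26, adjusted p 0.0657 in limma) without the 5 less spread arrays (-0.21, adjusted p 0.131) and when limma was given the dosed and vehicle arrays alone (adjusted p 0.0631). The call at 120 mg/kg was kept without those 5 arrays, at -0.29 (adjusted p 0.0186 in limma).

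With p-toluidine, the 5 arrays at 120 mg/kg read 7.30, 7.24, 7.45, 7.21 and 7.38, against 7.80, 7.85, 7.50, 7.58 and 7.87 in vehicle. The groups again did not overlap. Asl changed by -0.40 ± 0.08 (SE, adjusted p 0.00136 in limma), or 1.32-fold lower, and by -0.41 ± 0.08 at 60 mg/kg (adjusted p 0.00277). At 1, 6 and 20 mg/kg of p-toluidine the changes were -0.14, -0.23 and -0.28, none called. Over the rank of the dose, Asl lost 0.08 per dose step with DMPT (slope -0.08, adjusted p 5.8e-05 in limma) and as much with p-toluidine (slope -0.08, adjusted p 5.1e-05).

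The annotation of the probe set that stands for Asl is mixed. It carries the gene ID of Asl, but its reference transcript is listed in RefSeq under Hnrnpab, which encodes an RNA-binding protein. The second probe set carries a transcript of Asl itself. On it, Asl read 8.27, 8.01, 8.00, 8.25 and 8.00 at 120 mg/kg of DMPT, against 8.29, 8.51, 8.54, 8.36 and 8.53 in vehicle. The dosed arrays again lay below all vehicle arrays, and the log2 change was -0.34 ± 0.09 (SE, adjusted p 0.0136 in limma).

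The second Asl probe set was called at the same 4 doses as the first. Its calls were not checked with single arrays left out, without the less spread arrays or with the compared arrays alone. It changed by -0.33 at 60 mg/kg of DMPT (adjusted p 0.026 in limma), by -0.40 at 60 mg/kg of p-toluidine (adjusted p 0.0149) and by -0.37 at 120 mg/kg (adjusted p 0.0126). Across the 30 arrays of a chemical, which share doses and normalization, the 2 probe sets had r = 0.87 with DMPT and 0.86 with p-toluidine. The probe set annotated to Hnrnpab had r = 0.56 and 0.42 with the first Asl probe set, and r = 0.41 and 0.43 with the second. Its change with dose is not given here, and whether the first Asl probe set reads Hnrnpab was not tested. Over dose rank, the second Asl probe set had a slope of -0.07 with DMPT (adjusted p 0.00102 in limma) and -0.09 with p-toluidine (adjusted p 0.00016).

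**Figure D1:**
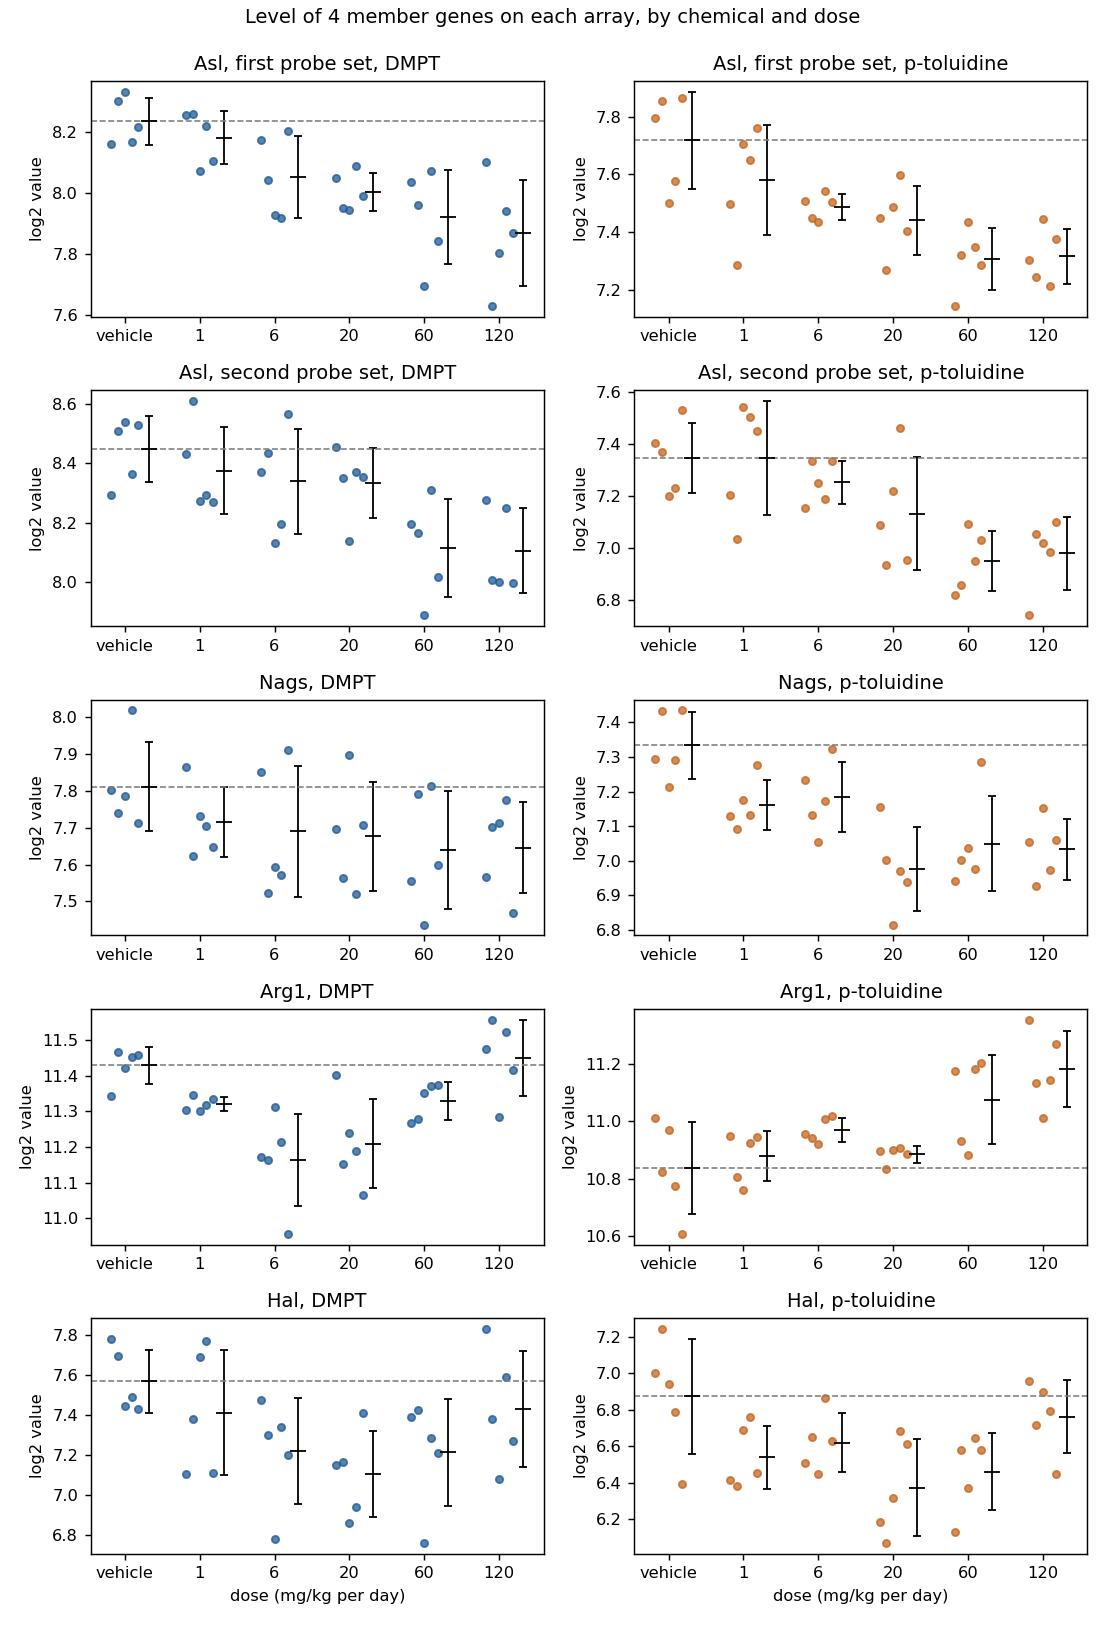
Level (log2 value) of Asl on both probe sets, Nags, Arg1 and Hal on each array, by dose in mg/kg per day, with DMPT on the left and p-toluidine on the right. Points are arrays, black bars are the mean and SD of 5 arrays, and the dashed line is the vehicle mean. Both Asl probe sets lie below their vehicle means at 60 and 120 mg/kg of both chemicals, the Nags means lie below the vehicle mean at every p-toluidine dose, and Hal is lowest at 20 mg/kg and near its vehicle mean at 120 mg/kg.

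Nags fell with p-toluidine. At 120 mg/kg of p-toluidine the arrays read 7.06, 6.93, 7.15, 6.97 and 7.06, against 7.29, 7.43, 7.21, 7.29 and 7.44 in vehicle. All dosed arrays were below all vehicle arrays. The log2 change was -0.30 ± 0.07 (SE, adjusted p 0.00527 in limma), or 1.23-fold lower. The 20 mg/kg arrays read 7.16, 7.00, 6.81, 6.97 and 6.94, again below all vehicle arrays, with a change of -0.36 ± 0.07 (adjusted p 0.012 in limma). When limma was given the dosed and vehicle arrays alone, the adjusted p was 0.0654 at 20 mg/kg and 0.0927 at 60 mg/kg.

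At 60 mg/kg of p-toluidine Nags changed by -0.29 ± 0.07 (SE, adjusted p 0.0178 in limma), and 1 dosed array, replicate 5 at 7.29, lay among the vehicle arrays. This call was lost without vehicle replicate 2 (-0.26, adjusted p 0.0583 in limma), without replicate 1 of the dose (-0.26, adjusted p 0.0598) and without replicate 4 of the dose (-0.27, adjusted p 0.0531). At 1 and 6 mg/kg the changes were -0.17 and -0.15, not called, with 5 of 5 arrays below the vehicle mean each time. With DMPT, Nags was called at no dose, with changes of -0.10, -0.12, -0.13, -0.17 and -0.17 from 1 to 120 mg/kg. At 120 mg/kg of DMPT it read 7.57, 7.70, 7.71, 7.78 and 7.47, against 7.80, 7.74, 7.79, 8.02 and 7.71 in vehicle, and the groups overlapped.

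Arg1 rose with p-toluidine at 120 mg/kg. The arrays read 11.36, 11.13, 11.01, 11.14 and 11.27 at 120 mg/kg of p-toluidine, against 11.01, 10.82, 10.97, 10.78 and 10.61 in vehicle. All dosed arrays lay above all vehicle arrays, though the lowest dosed and the highest vehicle array were the same at 2 decimals. The change was 0.35 ± 0.08 (SE, adjusted p 0.00236 in limma), or 1.27-fold higher. At 60 mg/kg it was 0.24 ± 0.08, not called (adjusted p 0.0712 in limma), and it was called without vehicle replicate 1 (0.28, adjusted p 0.0374), replicate 2 of the dose (0.27, adjusted p 0.0421) or replicate 3 of the dose (0.29, adjusted p 0.0322).

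With DMPT, Arg1 was called at no dose. Its means at vehicle, 1, 6, 20, 60 and 120 mg/kg were 11.43 ± 0.05, 11.32 ± 0.02, 11.16 ± 0.13, 11.21 ± 0.13, 11.33 ± 0.05 and 11.45 ± 0.11 (SD, n = 5 each). The lowest group was 6 mg/kg, where the arrays read 11.17, 11.16, 11.31, 11.21 and 10.96, against 11.34, 11.47, 11.42, 11.45 and 11.46 in vehicle. Those groups did not overlap, and the change was -0.27 ± 0.07 (SE, adjusted p 0.1 in limma). With 20 mg/kg of DMPT it was -0.22 ± 0.07 (adjusted p 0.0721 in limma), and it was called without replicate 1 of that dose (-0.27, adjusted p 0.028).

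Hal, histidine ammonia-lyase, takes the amino group from histidine as ammonia and was called at no dose. With DMPT its changes from 1 to 120 mg/kg were -0.16, -0.35, -0.46, -0.35 and -0.14, and with p-toluidine -0.33, -0.25, -0.50, -0.41 and -0.11. It was lowest at 20 mg/kg with both chemicals. At 20 mg/kg of DMPT the arrays read 7.15, 7.17, 6.86, 6.94 and 7.41, against 7.78, 7.70, 7.45, 7.49 and 7.43 in vehicle, all below, with a change of -0.46 ± 0.15 (SE, adjusted p 0.095 in limma).

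At 20 mg/kg of p-toluidine Hal read 6.18, 6.07, 6.32, 6.68 and 6.61, against 7.00, 7.24, 6.94, 6.79 and 6.39 in vehicle. Only vehicle replicate 5 lay among the dosed arrays. The change was -0.50 ± 0.13 (SE, adjusted p 0.069 in limma), and without vehicle replicate 5 it was -0.62 (adjusted p 0.0138). Leaving out replicate 4 of the dose gave -0.58 (adjusted p 0.0396 in limma). At 60 mg/kg of p-toluidine the change was -0.41 ± 0.13 (adjusted p 0.0744 in limma), and -0.53 without vehicle replicate 5 (adjusted p 0.0115).

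Cps1, the mitochondrial enzyme that makes carbamoyl phosphate and commits ammonia to the cycle, was called at no dose. It read 11.88, 11.79, 11.54, 11.88 and 11.68 at 120 mg/kg of DMPT, against 11.66, 11.73, 11.61, 11.56 and 11.72 in vehicle, and the groups overlapped. Its 10 changes lay between -0.18 (20 mg/kg of p-toluidine) and 0.10 (60 and 120 mg/kg of DMPT). The 2 probe sets of Cps1 followed each other less than those of Asl, with r = 0.36 over the DMPT arrays and 0.38 over the p-toluidine arrays. The second changed by -0.15 at 120 mg/kg of DMPT and by -0.29 at 120 mg/kg of p-toluidine (adjusted p 0.302 and 0.12 in limma), where the first changed by 0.10 and -0.07.

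Otc, which joins carbamoyl phosphate to ornithine to give citrulline, was not called, and all 10 of its changes were above 0, from 0.01 to 0.30. The largest was at 60 mg/kg of p-toluidine, where it read 9.61, 9.86, 9.68, 10.14 and 9.55, against 9.68, 9.41, 9.82, 9.41 and 9.01 in vehicle. The groups overlapped (adjusted p 0.152 in limma), and without vehicle replicate 3 the change was 0.39 (adjusted p 0.0473). At 20 mg/kg the changes were 0.26 with DMPT (adjusted p 0.147 in limma) and 0.26 with p-toluidine (adjusted p 0.363).

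Ass1, which couples citrulline to aspartate and feeds Asl with argininosuccinate, was not called at any dose. It read 11.15, 11.06, 10.88, 11.06 and 10.96 at 120 mg/kg of DMPT, against 11.19, 11.37, 10.87, 11.19 and 11.12 in vehicle. The groups overlapped, and its changes lay between -0.14 and 0.00 over all doses of both chemicals. The 95% interval at 120 mg/kg ran from -0.29 to 0.04 with DMPT and from -0.29 to 0.07 with p-toluidine.

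Gls2, the liver glutaminase that frees ammonia from glutamine, was not called. Its lowest change was at the lowest dose of p-toluidine: at 1 mg/kg it read 8.34, 8.25, 8.30, 8.35 and 8.40, against 8.63, 8.62, 8.70, 8.61 and 8.54 in vehicle. All 5 dosed arrays lay below all vehicle arrays, with a change of -0.29 ± 0.09 (SE, adjusted p 0.409 in limma). At that dose 0% of all probe sets was called. At the other 4 p-toluidine doses the changes were between -0.07 and 0.07, and with DMPT between -0.04 and 0.18.

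Sds, serine dehydratase, which deaminates serine to pyruvate, had a weak signal, at the 59.4th percentile of probe sets over the DMPT arrays and the 60.4th over the p-toluidine arrays. It was called at no dose. With DMPT it read 4.15, 3.87, 4.00, 3.92 and 3.82 at 6 mg/kg, against 4.63, 4.66, 4.04, 3.80 and 4.94 in vehicle, whose arrays were widely spread. The changes were -0.31, -0.46, -0.44, -0.04 and -0.05 from 1 to 120 mg/kg of DMPT, and between -0.09 and -0.01 with p-toluidine.

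**Figure D2:**
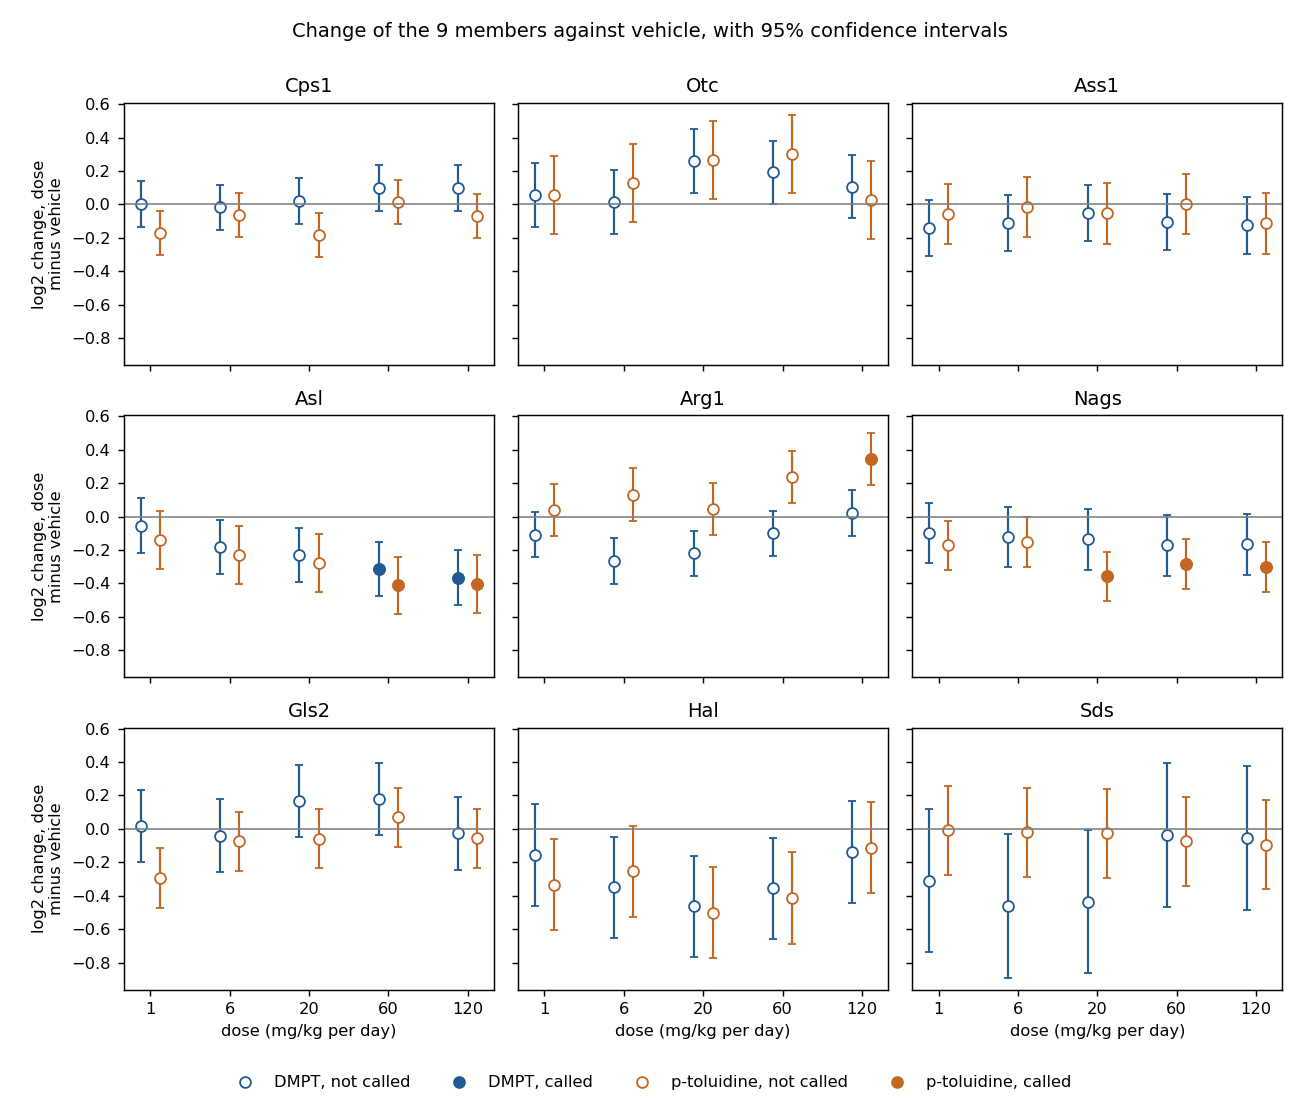
Log2 change of each of the 9 members against the vehicle of the same chemical, by dose in mg/kg per day, with DMPT in blue and p-toluidine in orange. Bars are 95% confidence intervals, and filled points have an adjusted p of at most 0.05. The filled points are Asl at 60 and 120 mg/kg of both chemicals, Nags at 20, 60 and 120 mg/kg of p-toluidine and Arg1 at 120 mg/kg of p-toluidine.

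Counted over the set, DMPT changed 0, 0, 0, 1 and 1 of 9 members from the lowest to the highest dose by limma, and 0%, 0.168%, 2.61%, 5.2% and 9.8% of all probe sets were called at these doses. The numbers of members at an unadjusted p below 0.05 were 0, 4, 5, 3 and 1. The numbers of all 31042 probe sets at that threshold were 1643, 2717, 4589, 5333 and 6776. p-Toluidine changed 0, 0, 1, 2 and 3 of 9 members, beside 0%, 0%, 0.786%, 4.51% and 10.7% of all probe sets. At an unadjusted p below 0.05 there were 4, 2, 5, 5 and 3 members, and 1992, 2557, 3426, 4901 and 6921 of all 31042 probe sets. By direction, 3.26% of all probe sets were lower at 60 mg/kg of DMPT and 5.53% at its top dose, where 4.27% were higher. With p-toluidine 0.303%, 2.39% and 5.07% were lower at the 3 upper doses, and 5.68% were higher at the top dose.

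The median change of the 9 members was -0.05 at 120 mg/kg of DMPT and -0.09 at 120 mg/kg of p-toluidine, where the median of all probe sets was 0.00 both times. Over the other doses it ranged from -0.13 to -0.10 with DMPT and from -0.14 to 0.00 with p-toluidine. All doses of a chemical share the same 5 vehicle arrays. The trend over dose rank called 1 member with DMPT (Asl, where 14.9% of all probe sets were called) and 3 with p-toluidine (14.5%): Asl, Nags at -0.06 per dose step (adjusted p 0.0018 in limma) and Arg1 at 0.06 per step (adjusted p 0.0008).

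The same genes were called by an order-restricted test, which lets a gene move 1 way only over the doses and takes its p from permuted arrays. That test called 10.7% of all probe sets with DMPT and 11.6% with p-toluidine. Its adjusted p was 0.00925 for Asl with DMPT, and 0.00385 for Asl, 0.011 for Nags and 0.00747 for Arg1 with p-toluidine.

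A sign of RNA quality moved with dose. The gap between the 3′ and 5′ probe sets of beta-actin was 1.28 ± 0.08 at 120 mg/kg of DMPT and 1.48 ± 0.15 in its vehicle, and 1.52 ± 0.09 at 120 mg/kg of p-toluidine and 1.80 ± 0.15 in its vehicle (SD, n = 5 each). With that gap as a covariate, the changes at 120 mg/kg were called as before: Asl at -0.47 with DMPT (adjusted p 0.00014 in limma), and Asl at -0.41 (adjusted p 0.00453), Nags at -0.30 (adjusted p 0.0179) and Arg1 at 0.38 (adjusted p 0.00316) with p-toluidine.

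Whether DMPT and p-toluidine, which differ by the methyl groups on the nitrogen, acted differently on these genes was tested as the difference of their responses at each of the 5 shared doses. No member passed at any dose in limma with p adjusted over all probe sets. At an unadjusted p below 0.05 there were 1, 1, 2, 1 and 1 members from 1 to 120 mg/kg. Of all 31042 probe sets, 2160, 1876, 2280, 1488 and 2059 were under that unadjusted threshold at these doses. Over all probe sets, 0% passed at 1, 6, 20 and 60 mg/kg, and 0.00644% (2 probe sets) at 120 mg/kg.

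The members under that unadjusted threshold were Gls2 at 1 mg/kg, Cps1 at 20 mg/kg and Arg1 at each dose from 6 mg/kg up. At 6 mg/kg Arg1 changed by -0.27 with DMPT and by 0.13 with p-toluidine, a difference of -0.40 (95% interval -0.59 to -0.20, adjusted p 0.417 in limma). At 1, 20, 60 and 120 mg/kg the differences were -0.15, -0.27, -0.34 and -0.32, all with DMPT lower. At 120 mg/kg the 95% interval was -0.52 to -0.13, with an adjusted p of 0.339 in limma. As a second planned value, each member's limma p was adjusted over its 5 doses alone. For Arg1 this gave 0.135, 0.00077, 0.0108, 0.00258 and 0.00275 from 1 to 120 mg/kg. No other member had a value of at most 0.05. This second value does not allow for the number of members or of probe sets tested.

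For Asl the difference at 120 mg/kg was 0.04, with a 95% interval of -0.19 to 0.27, so differences within that interval were not resolved. For Nags, called with p-toluidine only, it was 0.13 (95% interval -0.09 to 0.36, adjusted p 0.916 in limma) at 120 mg/kg and 0.22 (95% interval -0.00 to 0.45, adjusted p 0.688) at 20 mg/kg. The Nags responses are thus not shown to differ between the chemicals.

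**Figure D3:**
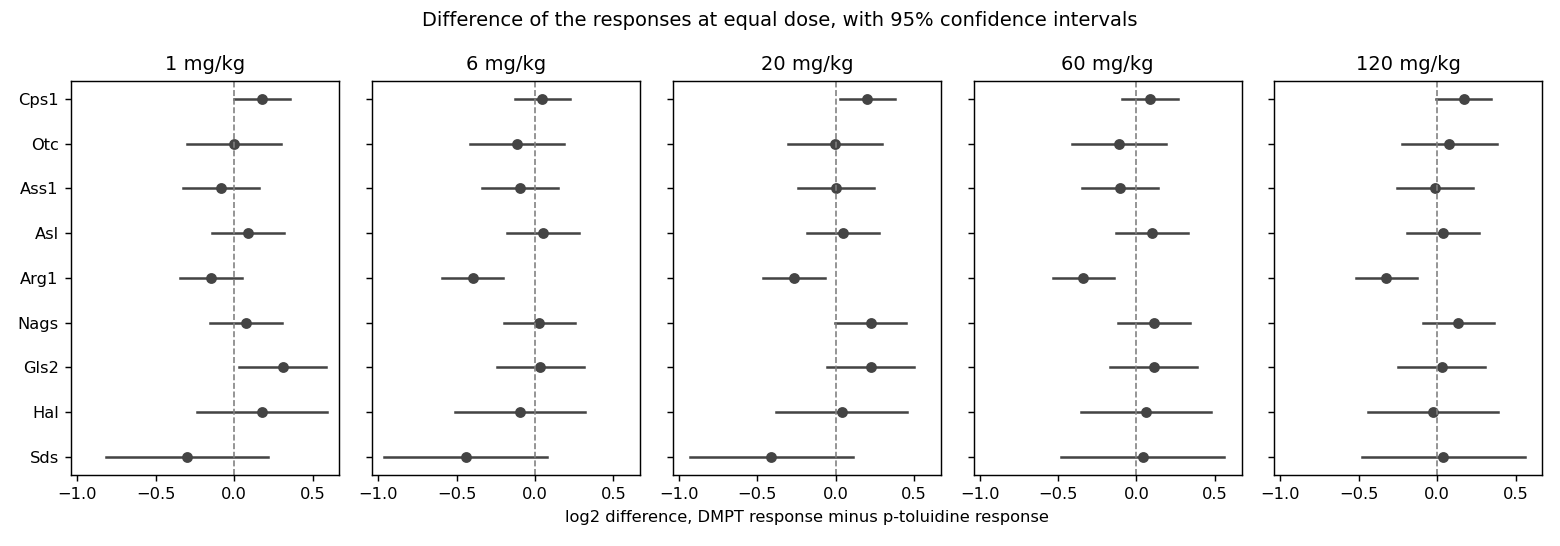
DMPT response minus p-toluidine response (log2) of the 9 members at each dose, where a response is the dose mean minus the vehicle mean of the same chemical. Points are the differences and bars their 95% confidence intervals. Arg1 lies below 0 at all 5 doses, and its interval excludes 0 at 6, 20, 60 and 120 mg/kg, while no adjusted p over all probe sets is at most 0.05.

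Shared movement of the members between arrays of the same group was tested by pairs. All 36 pairs were correlated in each chemical after the group means were taken out, and 0 of 72 had an adjusted p of at most 0.05 by permutation of arrays within groups, while 10 had an unadjusted p below 0.05. The highest was Cps1 with Arg1 in DMPT (Pearson's r = 0.53, permutation p 0.00332, adjusted p 0.239, Spearman's rho = 0.49, permutation p 0.0109, adjusted p 0.263, 30 arrays). Without the 2 arrays farthest from the median of Cps1, r was 0.46. Over the p-toluidine arrays the same pair had r = 0.0017 (permutation p 0.992). Asl and Nags had r = 0.43 with p-toluidine (permutation p 0.0225, adjusted p 0.29, rho = 0.50, permutation p 0.00743, adjusted p 0.263), and r = 0.35 without the 2 farthest arrays. With DMPT, Asl and Nags had r = 0.23 (permutation p 0.276).

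Other genes of the array were ranked by likeness to each member, taken as the lower of the Pearson correlations over the 30 DMPT arrays and over the 30 p-toluidine arrays, among 13971 genes. Arrays of 1 chemical share doses and normalization, so these are descriptions. Otc was most like Rida, at 0.81, and Atp5pb, at 0.78. Asl was most like Mrpl40, at 0.78, and Icoslg, at 0.77. Hal was most like Enpep, at 0.75, and Hsd17b6, at 0.70, and Arg1 like Spcs3, at 0.70, and Ndufaf5, at 0.67. Nags followed Sephs2, at 0.70, and Exd2, at 0.67.

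Gls2 was most like Uroc1, at 0.69, which encodes urocanase, the enzyme after histidase in histidine breakdown, and like Pm20d2, at 0.61. Cps1 was most like Selenop, at 0.66, and Nhlh1, at 0.61. For Ass1 the nearest genes were Gnmt, glycine N-methyltransferase, at 0.53, and Hpd, a tyrosine breakdown enzyme, at 0.49. Sds had the least alike neighbours, Lrrn4cl at 0.47 and Mmd2 at 0.43.

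Genes that feed nitrogen into the cycle were measured beside its enzymes. Of 18 measured genes for supply and transport, 1 rose and 7 fell at 120 mg/kg of DMPT, with a median change of -0.23, and 1 rose and 7 fell at 120 mg/kg of p-toluidine, with a median of -0.14. The median of all probe sets was 0.00. This list and those below were not refitted without the less spread arrays, which include replicates 2 and 5 at 120 mg/kg of DMPT. Beside each of these lists, the share of all probe sets called at 120 mg/kg was 9.8% with DMPT and 10.7% with p-toluidine. Oat, ornithine aminotransferase, which removes the ornithine that Otc uses, fell most in the list. It averaged 7.40 at 120 mg/kg of DMPT and 9.51 in vehicle, a change of -2.11 ± 0.20 (SE, adjusted p 1.0e-08 in limma), and 6.24 at 120 mg/kg of p-toluidine and 8.74 in vehicle, a change of -2.49 ± 0.25 (adjusted p 1.3e-08). In adult liver Oat is mainly a gene of the cells around the central vein, not of the periportal cells.

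Gpt, alanine aminotransferase, which passes nitrogen from alanine to glutamate, was the riser: its change was 0.57 at 120 mg/kg of DMPT (adjusted p 0.00339 in limma) and 0.84 at 120 mg/kg of p-toluidine (adjusted p 2.8e-05). Slc25a15, the mitochondrial carrier that brings ornithine to Otc, changed by -0.40 with DMPT (adjusted p 0.00036 in limma) and by -0.29 with p-toluidine (adjusted p 0.00416). Slc25a22, a mitochondrial glutamate carrier, changed by -0.33 with DMPT and by -0.41 with p-toluidine, both called. Got1, cytosolic aspartate aminotransferase, changed by -0.32 with DMPT, which was not called (adjusted p 0.0853 in limma), and by -0.66 with p-toluidine (adjusted p 3.3e-07). Aldh18a1, which makes the precursor of ornithine and proline, changed by -0.63 with DMPT (adjusted p 0.0316 in limma) and by 0.06 with p-toluidine, not called.

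**Figure D4:**
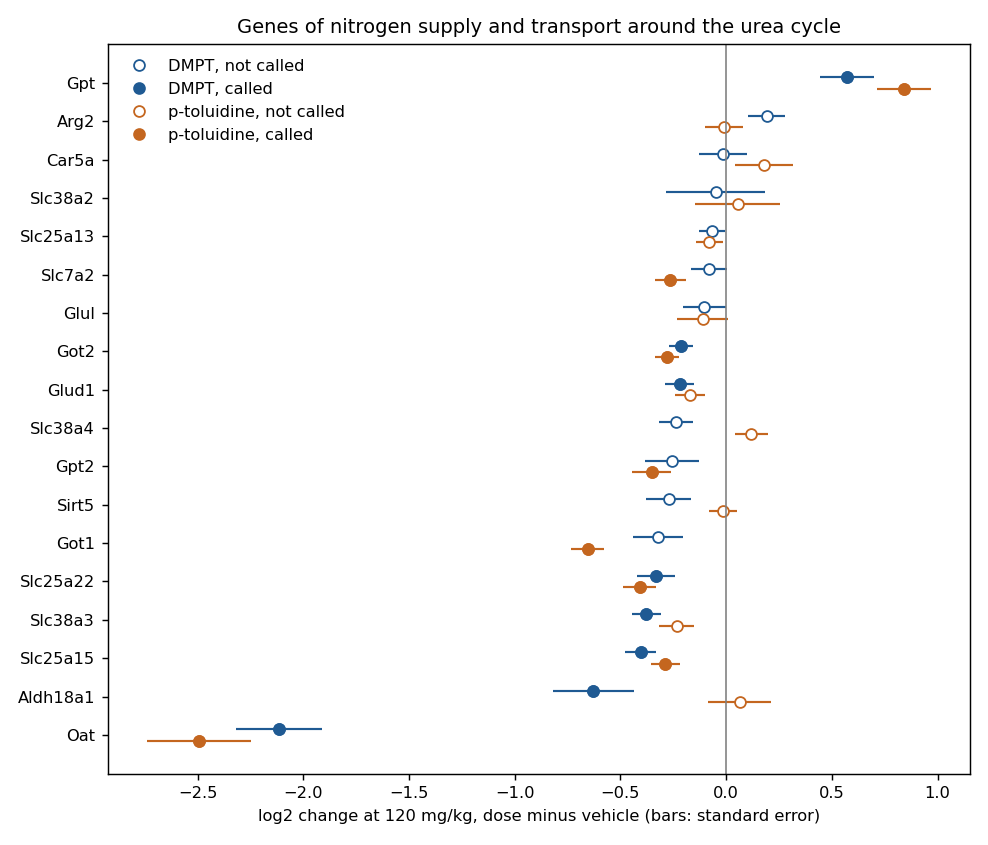
Log2 change at 120 mg/kg against vehicle of 18 genes of nitrogen supply and transport, with DMPT in blue and p-toluidine in orange. Bars are standard errors, and filled points have an adjusted p of at most 0.05. Oat lies at -2.11 and -2.49, far left of all others, and Gpt is the only filled point right of 0.

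Among 14 genes that break down histidine, serine, glycine, threonine and proline, which hold the partners of Hal and Sds, 0 rose and 4 fell at 120 mg/kg of DMPT (median -0.04). The 4 were Agxt (-0.50), Gcat (-0.41), Shmt2 (-0.32) and Prodh (-0.31), which act on glyoxylate, threonine, serine and proline. With p-toluidine at 120 mg/kg, Prodh fell (-0.60) and Uroc1, the enzyme after Hal, rose (0.32), with a median of -0.03. Among 32 genes of aromatic, sulfur, lysine and branched-chain amino acid breakdown, 2 rose and 11 fell with DMPT (median -0.18), and 1 rose and 9 fell with p-toluidine (median -0.09). Kynu, kynureninase of tryptophan breakdown, fell by 0.65 with DMPT and by 1.06 with p-toluidine, and Aass, the first enzyme of lysine breakdown, by 0.46 and 0.85. Csad (-0.49) and Cbs (-0.40), of sulfur amino acid metabolism, also fell with DMPT. Tdo2, the first enzyme of tryptophan breakdown, rose with p-toluidine (0.50).

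Of 14 regulators of amino acid enzyme genes, 1 fell with each chemical at 120 mg/kg, beside 5.53% (DMPT) and 5.07% (p-toluidine) of all probe sets. With DMPT it was Hnf4a, a hepatocyte nuclear receptor, at -0.52 (adjusted p 0.00018 in limma), whose change with p-toluidine was -0.31, not called (adjusted p 0.115). With p-toluidine it was Nr3c1, the glucocorticoid receptor, at -0.36 (adjusted p 0.0162), whose change with DMPT was -0.11, not called. Of 8 genes of glucagon and glucocorticoid output, Tsc22d3 fell with DMPT (-0.35, adjusted p 0.0264 in limma) and Tat, tyrosine aminotransferase, fell with p-toluidine (-0.95, adjusted p 0.00491). Single calls in lists of 14 and 8 genes are near the share of all probe sets called (9.8% with DMPT, 10.7% with p-toluidine).

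Other periportal genes were measured beside the members. Of 8, 1 rose and 3 fell at 120 mg/kg of DMPT, and 2 rose and 3 fell at 120 mg/kg of p-toluidine. Apoa4, an apolipoprotein, changed by -1.47 with DMPT and by -1.38 with p-toluidine, Igf1 by -0.51 and -0.67, Fbp1, fructose-bisphosphatase, by -0.34 and -0.46, and Cdh1, E-cadherin, by 0.31 and 0.48, all called. Of 12 pericentral genes, 0 rose and 6 fell with DMPT (median -0.43), and 0 rose and 5 fell with p-toluidine (median -0.15). Beside Oat, the largest were Cyp1a2 (-0.63), Gulo (-0.57) and Lect2 (-0.53) with DMPT, and Slc1a2 (-1.0), Cyp1a2 (-0.85) and Lect2 (-0.76) with p-toluidine. Of the 8 hepatocyte markers, 0 rose and 2 fell at 120 mg/kg of DMPT (Hnf4a and Serpina1, -0.23), and 0 rose and 0 fell at 120 mg/kg of p-toluidine, where Serpina1 had the change -0.15 (adjusted p 0.0571 in limma). Of 5 cholangiocyte markers, 1 rose with each chemical, Epcam, by 1.47 and 1.84. The part of cell composition in the changes of Asl, Nags and Arg1 was not tested.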

How the data were processed

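Gene expression was measured in 60 liver samples on single-channel Affymetrix rat arrays, 100 ng of RNA each, biotin labelled. The deposited log2 values were made by the authors with RMA, per the submitters' processing notes. The deposited array medians show that the chemicals were normalized apart. Of 31099 probe sets, 57 controls were left out and 31042 tested. The platform table gave 20826 probe sets 1 symbol, 436 several and 9780 none. No reads or spot files were used here.

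Groups follow the labels. limma 3.58.1 in R 4.3.3 fitted 6 group means per chemical (lmFit, eBayes), each dose against its vehicle, a slope over dose rank, and, over 12 group means, the difference of responses. p-values were adjusted over all probe sets (Benjamini-Hochberg, threshold 0.05). For the difference of responses, each member's p was also adjusted over its 5 doses. The scripts were tested on simulated data. Member pairs used 100000 permutations and the order-restricted test 100. Promoters and coordinates came from RefSeq GRCr8, matched by symbol. The members and gene lists were chosen with earlier results of these data known. All 9 members are named at every dose, of each list up to 4 called genes with the largest change at 120 mg/kg per chemical, and for each member the 2 genes most like it. Same-numbered replicates did not deviate together (50 pairs, r from -0.31 to 0.32, 10 over 0.1), so no pairing was used. Alternatives tried were quantile normalization, centring, only the compared arrays, intensity-trended robust variances, array weights and a filter on dim probe sets. Further ones were a beta-actin covariate, means of a gene's probe sets, log2(dose + 1), a replicate block and, except for the trend, each array left out. After the data were seen, the second Asl probe set and leaving out 5 less spread arrays were added.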

Additional observations from a re-analysis of the deposited data

Results flagged for a closer look

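In 7 of 132 groups of 5 arrays, 1 array lay far from the other 4 (Dixon's ratio above 0.71), and chance flags about 1 in 20 groups. Cps1 read 11.73 on replicate 3 at 20 mg/kg of DMPT, where the others lay at 11.65 to 11.67, and 11.94 on replicate 3 at 60 mg/kg of DMPT, one of the less spread arrays, where the others lay at 11.67 to 11.73. The second Cps1 probe set read 10.04 on replicate 1 at 120 mg/kg of p-toluidine, where the others lay at 10.41 to 10.48. Nags read 7.29 on replicate 5 at 60 mg/kg of p-toluidine, above 6.94 to 7.04 on the others. Gls2 read 8.40 on replicate 4 at 20 mg/kg of p-toluidine, below 8.57 to 8.64 on the others. Sds read 4.02 on replicate 5 at 20 mg/kg of p-toluidine, above 3.37 to 3.52 on the others, and 3.82 on replicate 2 of the p-toluidine vehicle, above 3.48 to 3.53.

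For Arg1 at 2 doses, 6 and 60 mg/kg, all DMPT arrays lay below their vehicle mean and all p-toluidine arrays above theirs. Arg1 was called with neither chemical at these doses, and the doses of a chemical share their vehicle arrays. How many of all probe sets show this pattern was not counted. The difference of the responses, DMPT minus p-toluidine, was -0.40 at 6 mg/kg (adjusted p 0.417 in limma) and -0.34 at 60 mg/kg (adjusted p 0.891). Adjusted over the 5 doses of Arg1 alone, the limma p of the difference was 0.00077 at 6 mg/kg and 0.00258 at 60 mg/kg. As Arg1 was called with neither chemical there, opposite responses are not shown at either dose.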

How the results depend on the processing

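Of 3033 member results under alternatives, 2995 stayed on their side of the threshold, 8 lost it, 30 gained it, and no called result changed sign. That total includes differences of responses, whose lowest p adjusted over all probe sets was 0.339 in limma. It also includes the run with the second Asl probe set, where only Asl can change, so it does not measure how stable the calls are. The 8 losses were of Asl at 60 mg/kg of DMPT and Nags at 20 and 60 mg/kg of p-toluidine. Counts of called members at 120 mg/kg of both chemicals and of the difference of responses were the same in every alternative run. Those of the trend were the same in the fewer runs made for it. These were log2(dose + 1), the replicate block, the order-restricted test and, for DMPT, the run without the less spread arrays. The trend was not run with single arrays left out. For DMPT, the count of 0 at 6 mg/kg became 1 (Arg1) with quantile normalization, with intensity-trended robust variances and without dim probe sets. The count of 0 at 20 mg/kg became 1 with these 3 (Arg1) and with only the arrays compared (Hal), 2 with the beta-actin covariate (Otc, Asl) and without the less spread arrays (Asl, Hal), and 4 with array weights (Otc, Asl, Arg1, Hal). The count of 1 at 60 mg/kg became 0 with only the arrays compared and without the less spread arrays. For p-toluidine, the count of 1 at 20 mg/kg became 0 with only the arrays compared and 2 with array weights or without dim probe sets (Hal added). The count of 2 at 60 mg/kg became 1 with only the arrays compared, 3 with intensity-trended robust variances (Arg1 added), array weights (Hal) or the beta-actin covariate (Otc), and 4 without dim probe sets (Arg1 and Hal). With 1 array left out, counts were 0 to 1 at 20 and at 60 mg/kg of DMPT, 1 to 2 at 20 mg/kg of p-toluidine and 1 to 3 at 60 mg/kg. The replicate block left each of these counts as it was, for example 3 at 120 mg/kg of p-toluidine. Over all probe sets, 810 calls at 20 mg/kg of DMPT became 1627 with array weights and 472 to 499 without vehicle replicate 3 or replicate 2 or 4 of the dose. At 60 mg/kg of DMPT, 1613 became 899 with only the arrays compared, and at 60 mg/kg of p-toluidine 1400 became 734. At 20 mg/kg of p-toluidine, 244 became 133 with only the arrays compared, 408 with array weights, 394 without dim probe sets, and 115 to 152 without vehicle replicate 2 or 4 or replicate 1, 2 or 3 of the dose. The causes were not tested.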

Other observations

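Some markers of cells other than hepatocytes were called at 120 mg/kg, beside 9.8% of all probe sets with DMPT and 10.7% with p-toluidine. Of 6 stellate cell markers, 1 rose (Rgs5, 0.43) and 1 fell (Pdgfrb, -0.72) at 120 mg/kg of DMPT, and 2 fell at 120 mg/kg of p-toluidine (Pdgfrb, -0.72, and Col3a1, -0.40). Rgs5 averaged 3.05 at 120 mg/kg of DMPT and 2.63 in vehicle, below the array medians. Of 3 erythroid markers, Ahsp rose with both chemicals, by 0.64 and 0.57. Of 6 macrophage markers, Cd14 rose with DMPT (0.59) and none was called with p-toluidine by limma. Of 4 lymphocyte markers, Cd3d rose with DMPT (0.25) and none was called with p-toluidine. Cd3d averaged only 1.94 at 120 mg/kg of DMPT and 1.69 in vehicle, near the level of the kidney markers, so its change is not read as a change of lymphocytes. Cela1 and Cpb1, of 6 pancreatic acinar markers, fell with both chemicals, Cela1 by 0.48 and 0.84 and Cpb1 by 0.29 and 0.35. In the DMPT vehicle Cela1 averaged 7.79. There Prss1, Cpa1, Amy2a3, Pnlip and Cpb1 averaged 1.53, 2.24, 1.04, 2.22 and 3.31, below the array medians. Cela1 is therefore not read here as a sign of acinar cells. None of 4 sinusoidal endothelium markers and 3 kidney markers was called.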
